A study of Mus musculus with 23 samples.

Results

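The glucocorticoid receptor gene Nr3c1 and 6 of its known direct targets, Ddit4, Cebpd, Cebpb, Fkbp5, Tsc22d3 and Sgk1, were followed in hindlimb muscle of mice. The members were all probe sets whose platform annotation gives exactly 1 of these 7 gene symbols, which are 14 of the 22626 non-control probe sets on the array. They stand for 7 of the 12393 genes with a probe set of their own. Nr3c1 and Tsc22d3 have 3 probe sets each, Cebpd, Cebpb and Fkbp5 have 2 each, and Ddit4 and Sgk1 have 1 each. All 14 passed the filter on low values, which required a log2 signal above 5.83 on at least 4 of the 23 arrays and kept 14849 probe sets. The Cebpd probe set 1456605_at exceeded that level on 13 arrays, Nr3c1 1421866_at on 22, and the other 12 members did so on all 23.

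All mice were female C57BL/6J aged 77 days. In the flight experiment, gastrocnemius muscle came from spaceflight mice, flown for 11 days and 19 hours (n = 4), and from AEM mice, housed in an animal enclosure module on Earth for as long (n = 4). In the calf experiment, calf muscle came from reloaded mice, whose hindlimbs were suspended for 12 days and then bore weight for 3.5 hours (n = 5), from mice at the end of the 12 days of hindlimb suspension (n = 5) and from untreated, normally housed control mice (n = 5). Whether arrays come from separate animals is not labelled, and the p-values rest on the spread from array to array, which may be technical. Groups were assigned from the sample titles, with which the source names and the stated design match. In the free-text descriptions the 2 flight groups are exchanged. Were those descriptions the true ones, each flight difference given here would have the opposite sign.

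The glucocorticoid receptor is a nuclear receptor that stays in the cytoplasm with heat shock proteins until corticosterone, the main glucocorticoid of the mouse, binds it. It then enters the nucleus and regulates genes through DNA elements made of a pair of inverted half-sites. In skeletal muscle, glucocorticoids are known for reducing protein synthesis, increasing protein breakdown and changing fuel use. Among the targets, Ddit4 (REDD1) inhibits mTOR complex signalling, Cebpb and Cebpd are leucine zipper transcription factors, Fkbp5 (FKBP51) is a chaperone partner that lowers the hormone affinity of the receptor, Tsc22d3 (GILZ) is an anti-inflammatory leucine zipper protein, and Sgk1 is a kinase related to AKT.

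Promoters are shown for 3 targets that were called higher in flight, of which 1 of the 6 Sgk1 promoters holds a full receptor element and those of Ddit4 and Fkbp5 do not. RefSeq promoters of GRCm38.p6, which run from 250 bases before to 50 bases after each start site, were matched to 5 of the 7 genes and gave 12 promoters. Of these, 6 belong to Sgk1 and 3 to Tsc22d3. The Sgk1 promoter lies at chr10:21993640-21993939 on the plus strand, the Ddit4 promoter at chr10:59951721-59952020 on the minus strand and the Fkbp5 promoter at chr17:28486100-28486399 on the minus strand. Capitals mark matches, on either strand, to the palindromic element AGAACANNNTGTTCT or to its half-site TGTTCT, and the palindrome contains the half-site on both of its arms. The sequences run 5′ to 3′ on the strand of the gene.
Sgk1: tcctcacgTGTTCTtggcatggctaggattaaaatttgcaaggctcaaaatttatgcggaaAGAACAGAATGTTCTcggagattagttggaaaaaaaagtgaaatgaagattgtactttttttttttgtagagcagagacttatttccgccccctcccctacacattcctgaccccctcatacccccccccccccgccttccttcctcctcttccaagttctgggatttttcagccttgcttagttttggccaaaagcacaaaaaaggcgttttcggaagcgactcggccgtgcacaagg
Ddit4: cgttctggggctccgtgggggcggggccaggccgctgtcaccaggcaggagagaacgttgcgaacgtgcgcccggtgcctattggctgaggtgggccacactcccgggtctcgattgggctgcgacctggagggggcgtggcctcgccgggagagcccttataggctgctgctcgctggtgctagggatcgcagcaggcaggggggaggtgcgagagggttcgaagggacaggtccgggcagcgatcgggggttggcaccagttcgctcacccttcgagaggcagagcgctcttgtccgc
Fkbp5: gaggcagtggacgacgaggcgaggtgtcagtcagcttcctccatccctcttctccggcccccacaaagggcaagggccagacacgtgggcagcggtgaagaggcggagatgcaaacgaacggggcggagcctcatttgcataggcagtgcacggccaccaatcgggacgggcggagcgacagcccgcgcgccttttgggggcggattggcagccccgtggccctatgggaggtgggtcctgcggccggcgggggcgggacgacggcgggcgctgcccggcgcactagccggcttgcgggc
The Sgk1 element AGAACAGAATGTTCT begins at base -189 from this start site. The element with any 3 bases between its arms occurs in 3 of all 32851 promoters (0.00913%), and a looser form, GNACANNNTGTNC, in 156 (0.475%). The looser form matched 1 of the 12 promoters, at the same place in Sgk1. The half-site alone occurred in 4 of the 12, against 19% of all promoters, so it is common by letters alone. It was found in 3 Sgk1 promoters and 1 Tsc22d3 promoter. The absence of a match, as in Ddit4 and Fkbp5, says only that these letters are not in the window. The files do not say which Sgk1 start site was in use in these muscles.

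Array medians lay between 6.15 and 6.23 on the flight arrays and between 6.28 and 6.39 on the calf arrays. Flight arrays had interquartile ranges of the log2 signals from 2.75 to 2.91, wider than those of calf arrays, from 2.20 to 2.46, and levels were compared within an experiment only. Suspension replicate 8 had the lowest median correlation with its group of all 23 arrays (0.985, where the others reached at least 0.989). The 12 skeletal muscle markers were all above the filter level in every group by their medians. Their summed signal, on the log2 scale, was 17.1 to 17.2 on every array.

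**Figure D1:**
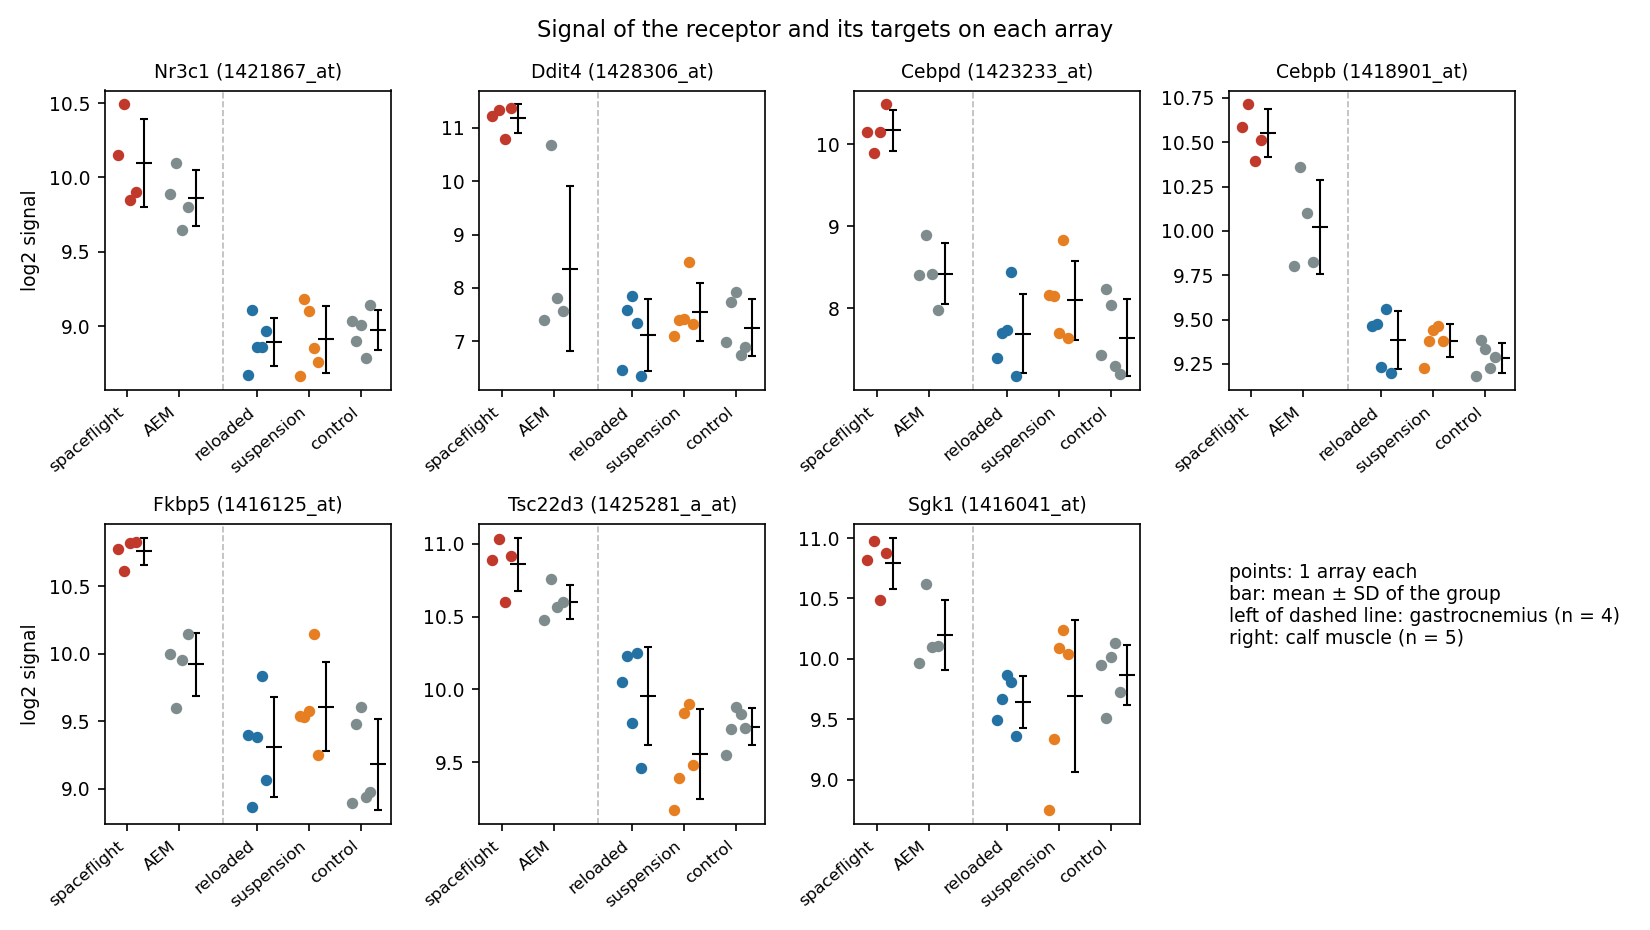
Log2 signal of the highest-level probe set of each gene on each of the 23 arrays; points are arrays and the bars give the mean ± SD of each group. Spaceflight lay above AEM without overlap in Ddit4, Cebpd, Cebpb and Fkbp5, while the 3 calf groups overlapped in all 7 genes.

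The first comparison asks whether flight changed these genes in gastrocnemius. Of the 14 probe sets 7 were called higher in spaceflight than in AEM and 0 lower (limma, Benjamini-Hochberg adjusted p under 0.05 over all 14849 probe sets). They belong to 5 genes, Ddit4, Cebpd, Cebpb, Fkbp5 and Sgk1. Among all probe sets tested, 6.36% were called, 3.25% higher and 3.11% lower. The groups did not overlap in 6 of the 14, against 12.9% of all probe sets. All 14 differences were positive, with a median log2 difference of 0.40 against -0.02 over all probe sets. The genes were chosen with earlier results of these arrays known, and probe sets of the same gene are not independent. Because these are bulk samples, fewer cells of a type and less RNA per cell cannot be told apart.

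The receptor itself was not called. Nr3c1 (probe set 1421867_at) had log2 signals, in order of replicate number here and below, of 10.15, 10.49, 9.85 and 9.90 in spaceflight (replicates 8 to 11), against 9.89, 10.10, 9.65 and 9.80 in AEM (replicates 1 to 4). The groups overlapped, and the log2 difference was 0.24 (95% interval -0.06 to 0.54, limma adjusted p = 0.36). The other Nr3c1 probe sets differed by 0.16 and 0.15 (limma adjusted p = 0.505 and 0.555). Spaceflight replicate 9 was the highest of all 8 arrays on each of the 3 probe sets. Without it the differences were 0.11 for 1421867_at, 0.050 for 1460303_at and 0.018 for 1421866_at.

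Ddit4, the mTOR inhibitor, had the largest difference of the 7 genes. Its log2 signals were 11.23, 11.33, 10.79 and 11.37 in spaceflight, against 7.39, 10.68, 7.80 and 7.57 in AEM. The 4 spaceflight arrays lay together, and AEM replicate 2 lay just below the lowest of them and far above the other 3 AEM arrays. The log2 difference was 2.82 ± 0.55 (SE, limma adjusted p = 0.00946), or 7.07-fold, at rank 3 in size among all probe sets. Without AEM replicate 2 it was 3.59 ± 0.14 (limma adjusted p = 1e-07). With trend and robust variance estimation the call ended (limma adjusted p = 0.0955).

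The C/EBP factors differed in size. Cebpd (probe set 1423233_at) stood at 10.15, 9.89, 10.14 and 10.49 in spaceflight, against 8.41, 8.90, 8.41 and 7.97 in AEM. No array of one group came within the range of the other, and the log2 difference of 1.74 ± 0.17 (SE, limma adjusted p = 0.000171, 3.35-fold) had rank 6 in size among all probe sets. The other Cebpd probe set, 1456605_at, read 5.70 on average in spaceflight and 5.64 in AEM, near the filter level, and differed by 0.06 (95% interval -0.12 to 0.25).

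Cebpb rose on both of its probe sets. Probe set 1418901_at read 10.58, 10.71, 10.39 and 10.51 in spaceflight, against 9.80, 10.36, 10.10 and 9.82 in AEM. The groups were parted by a narrow gap, with AEM replicate 2 next to spaceflight replicate 10, and the log2 difference was 0.53 ± 0.12 (limma adjusted p = 0.0231). Probe set 1427844_a_at gave 0.67 ± 0.09 (limma adjusted p = 0.00117). The call of 1418901_at ended without AEM replicate 1, AEM replicate 4, spaceflight replicate 8 or spaceflight replicate 9 (highest adjusted p = 0.071), while that of 1427844_a_at held with any single array left out (highest adjusted p = 0.0051).

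Fkbp5, the receptor's chaperone partner, rose on both of its probe sets. Probe set 1416125_at read 10.77, 10.61, 10.82 and 10.83 in spaceflight, against 10.00, 9.60, 9.95 and 10.15 in AEM. The groups did not overlap, and AEM replicate 2 was the lowest array of all 8. The log2 difference was 0.84 ± 0.11 (SE, limma adjusted p = 0.000902, 1.79-fold), and the other probe set gave 0.68 ± 0.11 (limma adjusted p = 0.00315). Both calls held with any single array left out, with adjusted p of at most 0.0117.

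Sgk1, of whose 6 promoters 1 holds the palindromic element printed above, had log2 signals of 10.82, 10.98, 10.48 and 10.88 in spaceflight, against 9.97, 10.62, 10.10 and 10.10 in AEM. AEM replicate 2 lay above spaceflight replicate 10, so the groups overlapped. The log2 difference was 0.59 ± 0.14 (limma adjusted p = 0.0263, 1.51-fold). The call ended without AEM replicate 1, 3 or 4 or spaceflight replicate 8, 9 or 11 (highest adjusted p = 0.0798) and with all 23 arrays in the fit (0.112), and without AEM replicate 2 the difference was 0.73 (limma adjusted p = 0.00283).

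Tsc22d3 did not pass on any of its probe sets. The highest-level one, 1425281_a_at, read 10.89, 11.04, 10.60 and 10.91 in spaceflight, against 10.48, 10.76, 10.56 and 10.60 in AEM. The groups overlapped through spaceflight replicate 10 and AEM replicate 2, and the log2 difference was 0.26 (95% interval 0.04 to 0.48, limma adjusted p = 0.158). The others differed by 0.21 and 0.13 (limma adjusted p = 0.245 and 0.611).

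**Figure D2:**
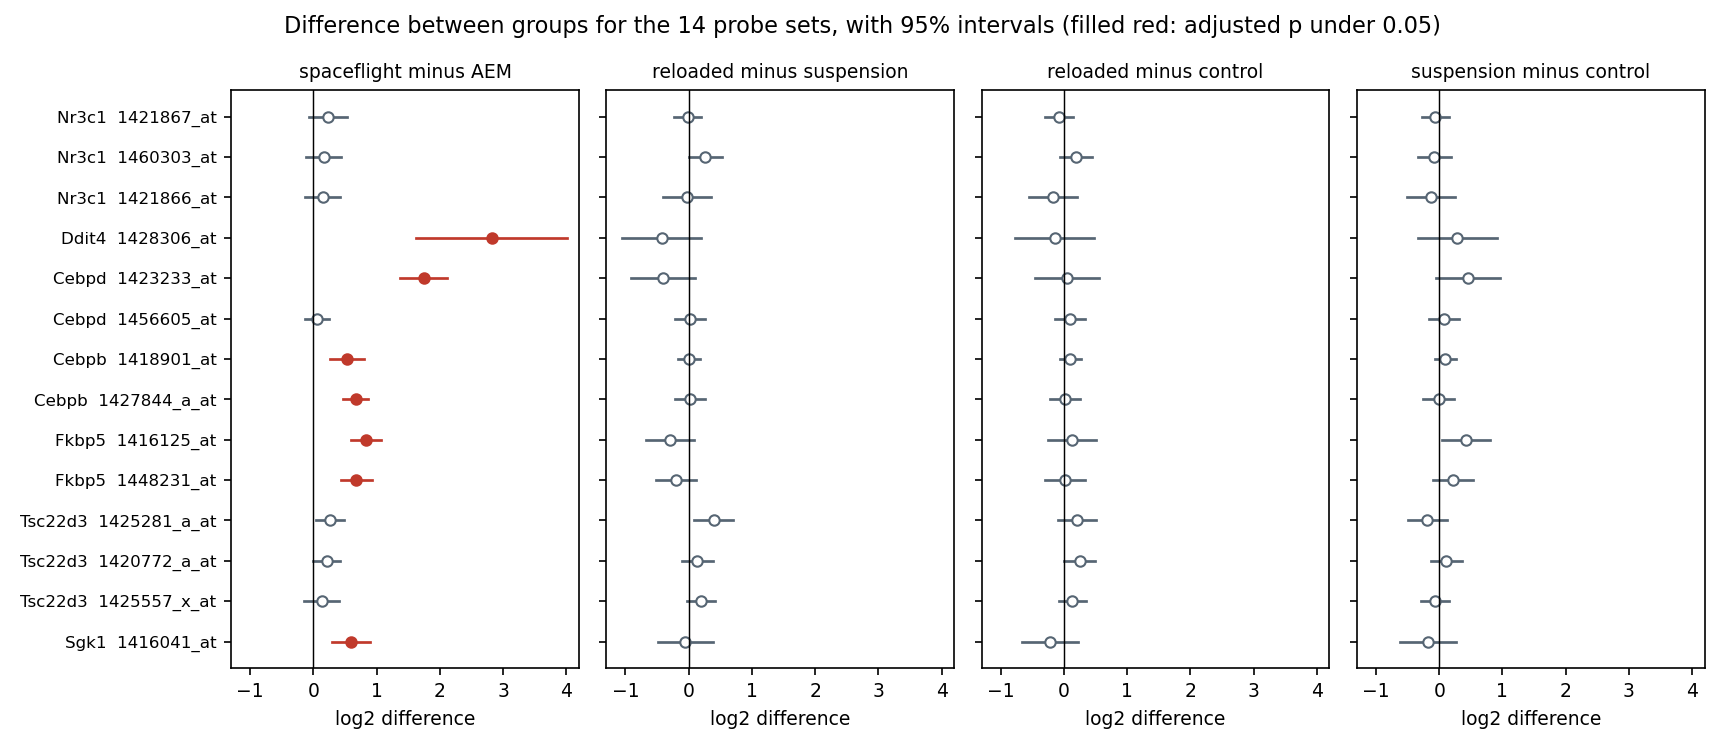
Log2 difference between groups (horizontal axis) for each of the 14 probe sets in 4 comparisons, with 95% intervals; filled red points passed the limma test. The 7 red points are all in the spaceflight comparison, led by Ddit4 at 2.82 and Cebpd at 1.74, and the 3 calf comparisons hold no red point.

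AEM replicate 2 stood apart from the other AEM arrays in the highest-level probe set of each gene. It was the highest of the 4 AEM arrays in 6 of 7 genes and the lowest in the remaining one, Fkbp5. Against the mean of the other 3 AEM arrays it was higher by 3.10 on the log2 scale in Ddit4, 0.63 in Cebpd, 0.56 in Sgk1, 0.45 in Cebpb, 0.32 in Nr3c1 and 0.21 in Tsc22d3. In Fkbp5 its log2 signal was 9.60, against a mean of 10.03 in the other 3. In the calf experiment suspension replicate 25 was the highest suspension array in 6 of 7 genes, Fkbp5 included. It exceeded the mean of the other 4 suspension arrays by 1.19 in Ddit4, 0.91 in Cebpd, 0.69 in Sgk1 and 0.67 in Fkbp5, and it was lower by 0.07 in Nr3c1. Other arrays stood at the low end. Spaceflight replicate 10, suspension replicate 8 and reloaded replicate 33 were each the lowest of their group in 5 of 7 genes. No such count over all probe sets is given here. The counts rest on the highest-level probe sets. On Nr3c1 1421866_at, Cebpd 1456605_at and Tsc22d3 1425557_x_at another AEM array lay above AEM replicate 2. Over all probe sets AEM replicate 2 had a median correlation of 0.994 with its group. Why these arrays stand apart was not tested.

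**Figure D3:**
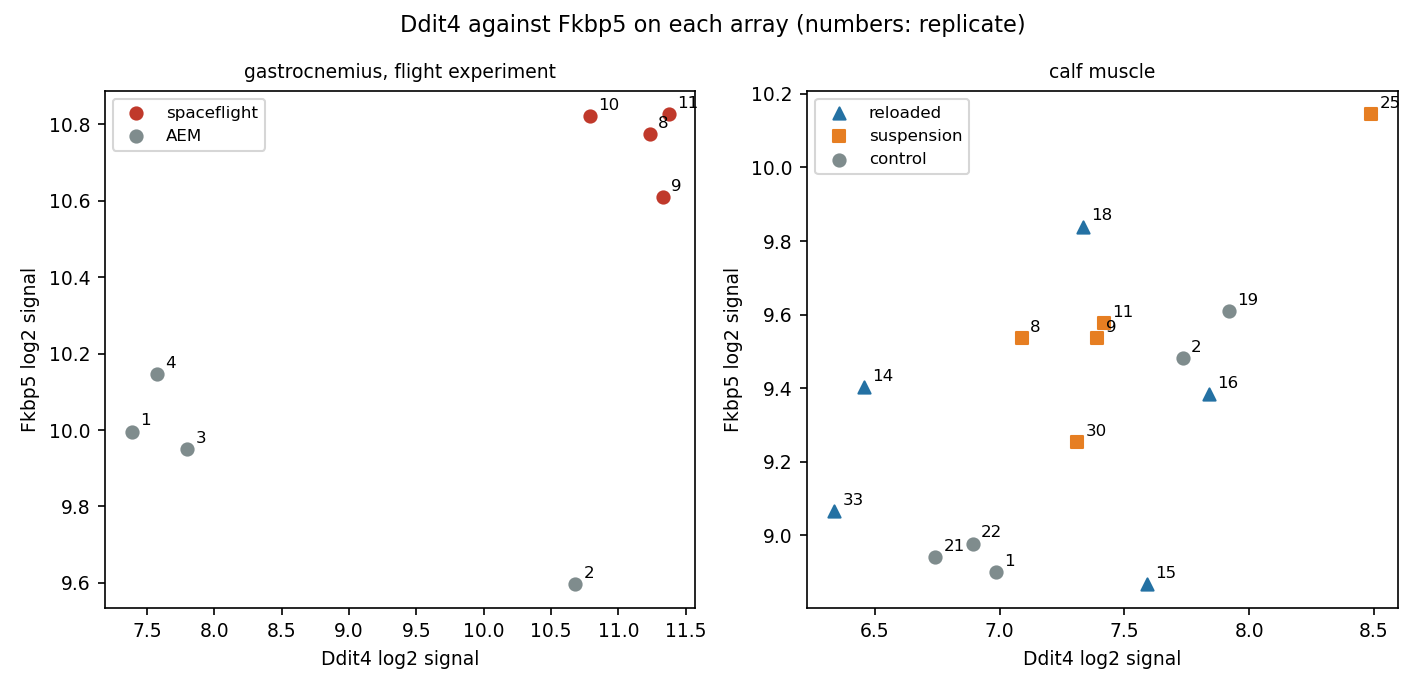
Log2 signal of Ddit4 (horizontal axis) and Fkbp5 (vertical axis) on each array, labelled by replicate number, for the flight experiment (left) and the calf experiment (right). AEM replicate 2 joins a Ddit4 signal of 10.68 with the lowest Fkbp5 signal of its experiment, 9.60, whereas suspension replicate 25 is the highest of the calf arrays in both genes, at 8.49 and 10.15.

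The genes whose pattern was most like that of a member were found by Pearson's r over the 23 arrays, after subtracting the mean of each experiment, among 9132 genes above the filter. These points share their group and experiment, so r reflects group differences as well as spread within groups. For Ddit4 they were Mt1 (r = 0.94), Nfkbia (0.91) and Mt2 (0.91), which are a pair of metallothioneins and an inhibitor of NF-kappa-B. For Cebpd they were Cdkn1a (0.89), Sesn1 (0.89) and Eif4ebp1 (0.88), for Cebpb Wbp1l (0.92), Mt1 (0.90) and Mt2 (0.90), and for Fkbp5 Eif4b (0.87), Inmt (0.87) and Gucd1 (0.84). Sgk1 was most like Snrk (0.87), Ggnbp2 (0.81) and Tuba4a (0.80), Tsc22d3 like Ell2 (0.85), Ap4s1 (0.80) and Stat3 (0.80), and Nr3c1 like Jade1 (0.85), Lrrfip1 (0.81) and Atp6ap1 (0.77). Repeat probe sets of a gene agreed to different degrees by the same measure, with r of 0.97 for Fkbp5, 0.85 for Cebpb and 0.28 for Cebpd.

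Other genes known to respond to glucocorticoids were read from 29 tested genes. In spaceflight 18 of the 29 rose, 0 fell and 11 did not pass, with a median log2 difference of 0.62, against 3.25% of all probe sets called higher and a median of -0.02. This list was chosen with earlier results of these arrays known, so the count is not independent support. It holds Mt1, Mt2, Nfkbia, Cdkn1a and Sesn1, which are named above as most like a member on the same arrays. The 4 largest increases were in Mt2 (log2 difference 3.37 ± 0.44, limma adjusted p = 0.000833), Mt1 (2.25), the siderophore-binding Lcn2 (1.62) and the clock repressor Per1 (1.59). Lcn2 read 6.48 to 6.84 in spaceflight and 4.67 to 5.80 in AEM, where every array was below the filter level of 5.83. It passed the filter through the spaceflight arrays, so the size of its difference is uncertain. The metallothionein Mt2 averaged 12.10 in spaceflight and 8.73 in AEM, and its groups did not overlap. AEM replicate 2 was the highest AEM array in 20 of the 29 and the lowest in 4, which were Pik3r1, Glul, Bcl6 and Cited2 (named after their values were seen). Suspension replicate 25 was the highest suspension array in 18 of the 29. In the calf 0 of the 29 were called by limma in any of the 3 comparisons, with medians between 0.02 and 0.05. Of all probe sets 0.377% were called in suspension against control, 0.579% in reloaded against suspension and 0.337% in reloaded against control. A count of 0 in 29 is therefore near the background. An unadjusted p under 0.05 was found for 8 in reloaded against suspension, 5 in reloaded against control and 3 in suspension against control.

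**Figure D4:**
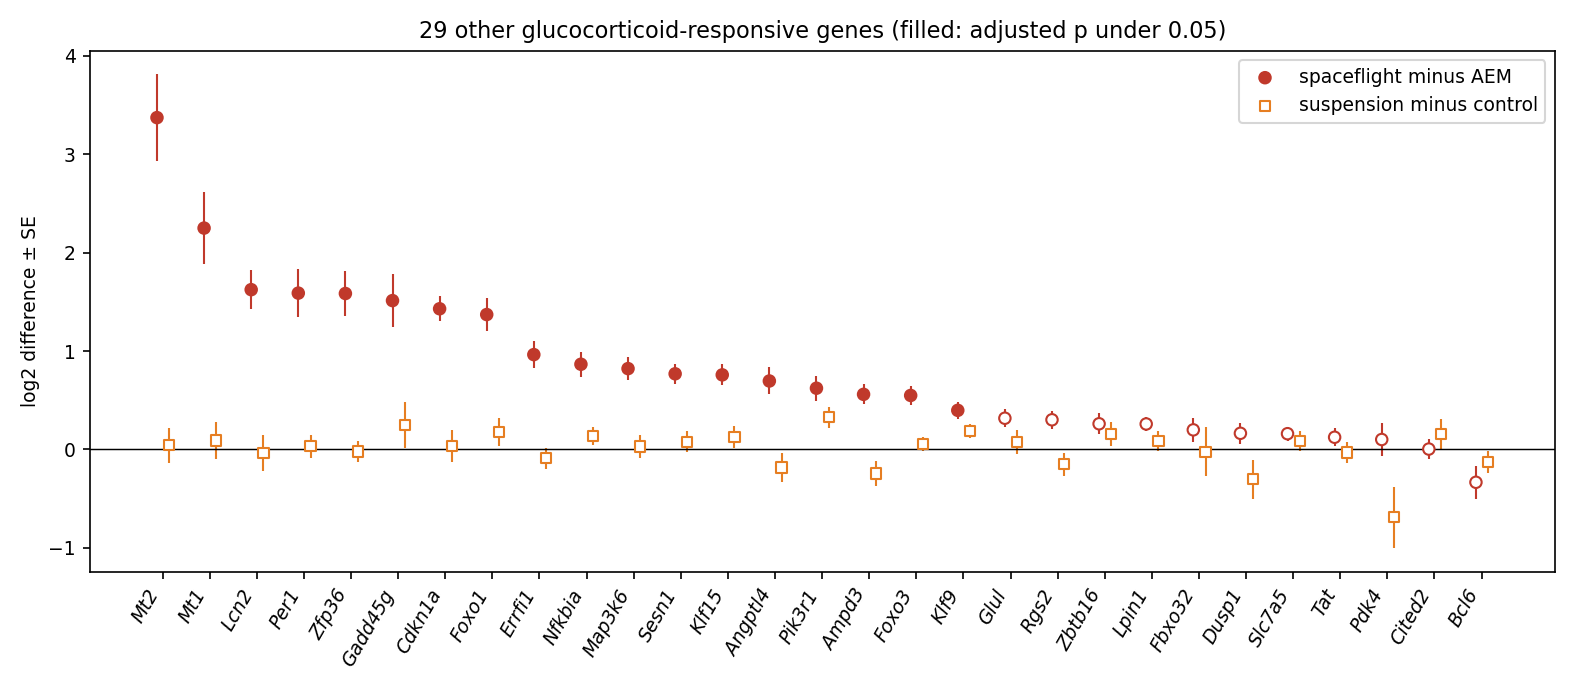
Log2 difference ± SE for 29 other glucocorticoid-responsive genes, for spaceflight minus AEM (red circles) and suspension minus control (orange squares); filled symbols passed the limma test. The 18 filled circles run from 3.37 for Mt2 down to 0.40. None of the squares is filled, in a comparison where 0.377% of all probe sets were called.

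Partners of the receptor were read from 12 tested genes. Among these genes for heat shock chaperones, co-chaperones, coactivators and the steroid-reactivating enzyme Hsd11b1, 0 were called by limma, 2 had an unadjusted p under 0.05 and 6 differences were positive, with a median of -0.01. With 6.36% of all probe sets called in flight, a count of 0 in 12 is near the background. Hsp90aa1, the inducible HSP90 that holds the unliganded receptor, rose in reloaded over suspended calf (0.60 ± 0.13, limma adjusted p = 0.0414) as the 1 called gene of this list, where 0.579% of all probe sets were called. In the list of mTOR and SGK pathway genes 4 of 16 rose in spaceflight and 0 fell, where 3.25% of all probe sets were called higher and 3.11% lower. These were Nedd4l, a ubiquitin ligase that SGK1 phosphorylates (0.63), the translation repressor Eif4ebp1 (0.52), Txnip (0.42) and Rps6 (0.32). The SGK1 substrate gene Ndrg1 rose in suspension over control (0.77 ± 0.12, limma adjusted p = 0.0075), where Sgk1 itself was not called and 0.377% of all probe sets were.

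Among 16 relatives of the members, Cebpa rose in spaceflight (0.84 ± 0.08, limma adjusted p = 0.000179), as did the nuclear receptor Nr1d1 (0.37), and 0 fell, against the same shares of all probe sets. Cebpa is a C/EBP factor of adipocytes and liver. Of 12 tested genes of cytokine pathways that are known to act upstream of Cebpb and Cebpd, 0 were called in flight by limma. The list is not limited to inducers. Of the 12, 4 had an unadjusted p under 0.05 and 3 differences were positive, with a median of -0.16. A count of 0 in 12 is near the background, where 6.36% of all probe sets were called. Il6, Il1b, Cxcl1 and Saa3 were below the filter. In the calf comparisons 0 genes of these 2 lists were called by limma, where 0.337% to 0.579% of all probe sets were. The relatives had an unadjusted p under 0.05 in 7 genes in reloaded against suspension, 1 in reloaded against control and 2 in suspension against control.

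Adipocyte markers moved with the flight group. Of 8 tested, 5 rose and 0 fell, against 3.25% and 3.11% of all probe sets, namely Cidec (1.67), Adipoq (1.44), Retn (1.05), Lipe (0.63) and Lep (0.62), with a median log2 difference of 0.63. The summed signal of the 10 adipocyte markers on the array was 13.67 to 13.87 on the log2 scale in spaceflight and 13.50 to 13.66 in AEM. This sum rests largely on Car3, the marker with the highest level, which averaged 12.79 in spaceflight and 12.90 in AEM. Of the 8 tested differences 7 were positive, and that of Car3 was -0.11. Fabp4 (11.03 and 10.77) and Scd1 (11.33 and 11.03), the next highest, were not called either. Pparg and Cidea lay below the filter. Cidec and Lep passed it but averaged 5.05 and 5.55 in AEM, below the filter level of 5.83. In spaceflight they averaged 6.72 and 6.17, so the sizes of their differences are uncertain. The part of adipocyte RNA in the rise of the members was not tested. Of the macrophage markers 0 of 11 were called by limma (2 at an unadjusted p under 0.05), with summed signals of 10.6 to 10.8 in spaceflight and 10.6 to 11.0 in AEM. Of the neutrophil markers 0 of 7 were called by limma (0 at an unadjusted p under 0.05) and 0 differences were positive. Their summed signals were 8.51 to 8.67 in spaceflight and 8.65 to 8.70 in AEM, and S100a8 averaged 4.02 in spaceflight and 3.98 in AEM, below the filter. By their medians only 3 of the 8 neutrophil markers on the array were above the filter level in spaceflight and 4 in AEM. They therefore say little about neutrophils on the flight arrays. Of the 12 endothelial markers Kdr was called lower (-0.32) and 0 were called higher by limma, with 6 at an unadjusted p under 0.05. Their differences went both ways, from -0.34 to 0.28, and 7 were positive. Of the 12 muscle markers 0 were called by limma (1 at an unadjusted p under 0.05).

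The second experiment asks what suspension did without flight. None of the 14 probe sets was called in suspension against control by limma, where 0.377% of all probe sets were, and 1 had an unadjusted p under 0.05. The groups overlapped in all 14, and did not in 1.95% of all probe sets. Ddit4 read 7.09, 7.39, 7.42, 8.49 and 7.31 in suspension (replicates 8, 9, 11, 25 and 30), against 6.98, 7.73, 7.92, 6.74 and 6.89 in control. The groups overlapped, and the log2 difference was 0.29 (95% interval -0.34 to 0.91). Without suspension replicate 25 the differences from control were 0.048 in Ddit4, 0.27 in Cebpd and 0.29 in Fkbp5, and without other single arrays that of Ddit4 was 0.16 to 0.45. Fkbp5 read 9.54, 9.53, 9.58, 10.15 and 9.25 in suspension, against 8.90, 9.48, 9.61, 8.94 and 8.98 in control, a difference of 0.43 (95% interval 0.05 to 0.80, limma adjusted p = 0.509). This was the probe set with the unadjusted p under 0.05. Cebpd differed by 0.45 (-0.05 to 0.96), Cebpb by 0.10 (-0.07 to 0.26), Tsc22d3 by -0.19 (-0.50 to 0.12) and Nr3c1 by -0.06 (-0.28 to 0.15). These are the highest-level probe sets. The others differed by 0.22 in Fkbp5, 0.08 in Cebpd, -0.01 in Cebpb, 0.11 and -0.06 in Tsc22d3, and -0.08 and -0.13 in Nr3c1. Signs thus differed between probe sets of Cebpb and of Tsc22d3. Of the 8 adipocyte markers tested, 0 were called by limma in this comparison, 5 had an unadjusted p under 0.05 and 7 differences were positive, with a median of 0.39. Their part in the values of Cebpd and Fkbp5 was not tested.

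Among the highest-level probe sets, Sgk1 had the largest SD within the suspension group (0.63 on the log2 scale, n = 5). It read 8.75, 9.34, 10.09, 10.24 and 10.04 in suspension, against 9.95, 9.51, 10.02, 10.13 and 9.73 in control. The low values are those of suspension replicates 8 and 9. The log2 difference was -0.18 (95% interval -0.62 to 0.27), and without these 2 arrays, an alternative chosen after seeing the data, it was 0.26.

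The third comparison asks what 3.5 hours of weight bearing did after suspension. Of the 14 probe sets 0 were called in reloaded against suspended calf by limma, where 0.579% of all probe sets were, and 2 had an unadjusted p under 0.05. The groups overlapped in all 14, and did not in 1.43% of all probe sets. Tsc22d3 read 10.05, 10.23, 9.77, 10.25 and 9.46 in reloaded calf, against 9.17, 9.39, 9.84, 9.90 and 9.48 in suspended calf. Of the 5 reloaded arrays 3 lay above every suspension array, and the log2 difference was 0.40 (95% interval 0.09 to 0.70, limma adjusted p = 0.405). The other unadjusted p under 0.05 was that of Nr3c1 1460303_at (0.27), while the other Nr3c1 probe sets differed by -0.02 and -0.03. Ddit4 read 6.46, 7.59, 7.84, 7.33 and 6.34 in reloaded calf and differed from suspension by -0.43 (-1.05 to 0.19). Cebpd differed by -0.41 (-0.91 to 0.10) and Fkbp5 by -0.30 (-0.67 to 0.08). Without suspension replicate 25 these differences were -0.19 in Ddit4, -0.22 in Cebpd and -0.16 in Fkbp5. With all arrays, the lower-level probe sets differed by 0.02 in Cebpd and -0.20 in Fkbp5. Of the 8 adipocyte markers tested, 0 were called by limma in this comparison, 3 had an unadjusted p under 0.05 and 1 difference was positive, with a median of -0.24. Their part in the values of Cebpd and Fkbp5 was not tested.

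Against control, the reloaded group also had 0 of 14 called by limma, where 0.337% of all probe sets were, and 1 unadjusted p under 0.05. That was Tsc22d3 1420772_a_at, with a difference of 0.25 (95% interval 0.00 to 0.50, limma adjusted p = 0.702). The groups overlapped in all 14, and did not in 2.48% of all probe sets. The highest-level probe sets differed by 0.21 in Tsc22d3, 0.13 in Fkbp5, 0.10 in Cebpb, 0.05 in Cebpd, -0.08 in Nr3c1, -0.14 in Ddit4 and -0.22 in Sgk1. This comparison shares its control arrays with that of suspension and its reloaded arrays with the one before.

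The flight effect was then set against each calf effect over all 23 arrays, with each effect taken within its own experiment. This removes an offset between the experiments but not a difference of scale. Interquartile ranges were wider on flight arrays (2.75 to 2.91) than on calf arrays (2.20 to 2.46), and the part of this in the differences of effects was not tested. The flight effect exceeded the suspension effect in Ddit4 by 2.54 ± 0.64 (SE, limma adjusted p = 0.0386) and in Cebpb 1427844_a_at by 0.68 ± 0.16 (limma adjusted p = 0.0247), which are 2 of 14 called, both higher, where 1.58% of all probe sets were called and 0.956% called higher. Cebpd exceeded it by 1.29 ± 0.35 and did not pass (limma adjusted p = 0.0563). In Fkbp5 the difference of effects was 0.41 (95% interval -0.10 to 0.92), between a flight effect of 0.84 and a suspension effect of 0.43. The Ddit4 call ended without any of 12 single arrays (highest adjusted p = 0.103), which were AEM replicates 1, 3 and 4, spaceflight replicates 8, 9 and 11, suspension replicates 8, 9, 11 and 30 and control replicates 2 and 19, and with trend and robust estimation (0.114) or array weights (0.0612). The Cebpb call ended without AEM replicate 1 or spaceflight replicate 11 (highest adjusted p = 0.0611). Cebpd passed without control replicate 22, reloaded replicate 18 or 33 or suspension replicate 25. Without AEM replicate 2, 4 of the 14 were called, with Cebpd at 1.45 (limma adjusted p = 0.0254) and Cebpb 1418901_at at 0.55 (limma adjusted p = 0.0224) as the additional ones.

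Against the effect of suspension with reloading, the flight effect was larger in Ddit4 by 2.96 ± 0.64 (SE, limma adjusted p = 0.00779), in Cebpd by 1.69 ± 0.35 (limma adjusted p = 0.00461) and in Cebpb 1427844_a_at by 0.65 ± 0.16 (limma adjusted p = 0.0214). These are 3 of 14 called, all higher, where 3.27% of all probe sets were called and 1.62% called higher. The calls of Ddit4 and Cebpd held with any single array left out, and that of Cebpb ended without AEM replicate 1 (adjusted p = 0.0516). Cebpb 1418901_at passed without AEM replicate 2 (0.54, adjusted p = 0.0173), and Sgk1 without suspension replicate 8 (adjusted p = 0.0402) or with array weights (0.0376). Fkbp5 differed by 0.71 (95% interval 0.20 to 1.22, limma adjusted p = 0.136), Sgk1 by 0.82 (0.21 to 1.43, limma adjusted p = 0.156), Nr3c1 by 0.32 (-0.04 to 0.68) and Tsc22d3 by 0.05 (-0.37 to 0.47). These are the highest-level probe sets. The others differed by 0.67 in Fkbp5, -0.02 and 0.31 in Nr3c1, and -0.04 and -0.001 in Tsc22d3. Gastrocnemius and calf muscle are not the same dissection, and the experiment and the tissue cannot be told apart in either difference of effects.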

How the data were processed

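The authors deposited 1 table of log2 signals for 22690 probe sets on 23 Affymetrix arrays. The submitters' processing notes name RMA and MAS5 without their roles or versions, and joint normalization of the arrays is not stated there. The deposited log2 values were used unchanged. After 64 controls were left out, 20380 probe sets had 1 gene symbol in the platform annotation, which can be old, 691 had several and 1555 had none. A probe set was tested if its log2 signal was above 5.83 (percentile 40 of all values) on 4 or more arrays, with limma 3.58.1 (lmFit, eBayes, two-sided) in R 4.3.3, each probe set on its own. Calls are at an adjusted p (Benjamini-Hochberg) under 0.05 over 14849 probe sets. The flight arrays were fitted alone, the 15 calf arrays together, and differences of effects over all 23. Precision is limited by the number of arrays: log2 differences between groups had a median SE of 0.09. The fit was tested on simulated data with known changes. No batch or scan date was available to test.

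The members, gene lists and tests were chosen with earlier results of these data known. All member probe sets are named. Of the other lists a gene was read from its highest-level probe set, and at most 4 called genes per direction were named in a comparison, except that all called adipocyte markers are given. For each member the 3 genes with the highest Pearson correlation are named. Alternatives were no filter, a filter at percentile 60, 1 probe set per gene, quantile normalization within each experiment, median centring, trend and robust estimation, array weights, other sets of arrays in the fit, exchanged flight labels, and leaving out each array. Leaving out suspension replicates 8 and 9 together was added after seeing the data.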

Additional observations from a re-analysis of the deposited data

Results flagged for a closer look

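Among 70 pairs of a probe set and a group, 5 held an array whose distance to its nearest neighbour exceeded Dixon's 95% limit as a share of the group's range; chance gives about 1 in 20. They were AEM replicate 2 in Ddit4 (share 0.874, at 10.68 with the next array at 7.80), suspension replicate 25 in Ddit4 (0.765, 8.49 with the next at 7.42) and in Fkbp5 1448231_at (0.721, 8.68 with the next at 8.29), AEM replicate 1 as the lowest in Cebpb 1427844_a_at (0.91, 8.43 with the next at 8.75), and suspension replicate 8 as the lowest in Tsc22d3 1425557_x_at (0.791, 7.66 with the next at 8.15).

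The flight effect differed from the suspension effect, by limma's test of the difference, in Ddit4 (2.54) and Cebpb 1427844_a_at (0.68). It differed from the effect of suspension with reloading in Ddit4 (2.96), Cebpd 1423233_at (1.69) and Cebpb 1427844_a_at (0.65).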

How the results depend on the processing

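No paired analysis was possible because the groups compared share no replicate number. The count of member probe sets called in flight lay between 5 and 7 under every alternative run, and in each calf comparison it was 0 under all of them. With 1 probe set per gene only the highest-level ones are tested, which leaves out Cebpb 1427844_a_at by construction. The count for the flight effect minus the suspension effect was 1 with 1 probe set per gene, 1 with trend and robust estimation, 1 with array weights, and 0 to 4 with 1 array left out. With the 2 flight labels exchanged it was 6, and for the flight effect minus the reloaded effect it was 5, against 2 to 4 with 1 array left out. With these labels exchanged the differences from the suspension effect were -0.18 in Nr3c1, -3.11 in Ddit4, -2.20 in Cebpd, -0.63 in Cebpb, -1.26 in Fkbp5, -0.071 in Tsc22d3 and -0.42 in Sgk1, and those from the reloaded effect were -0.16, -2.68, -1.79, -0.63, -0.97, -0.47 and -0.37 in the same order, by construction of the exchange. The other sign changes were in differences that no test called. Sgk1 in suspension minus control was 0.14 with array weights, 0.26 without suspension replicates 8 and 9, and -0.31 to 0.060 with 1 array left out. Cebpb in reloaded minus suspension was -0.041 with quantile normalization, -0.00596 with array weights, -0.044 without suspension replicates 8 and 9, and -0.037 to 0.054 with 1 array left out. Tsc22d3 in the flight effect minus the reloaded effect was -0.015 with array weights and -0.071 to 0.14 with 1 array left out. Leaving out 1 array also gave -0.080 to 0.050 for Nr3c1 and -0.28 to 0.088 for Sgk1 in reloaded minus suspension, and -0.33 to 0.051 for Ddit4, -0.14 to 0.20 for Cebpd and -0.0021 to 0.24 for Fkbp5 in reloaded minus control. The cause was not tested.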
